A study of Mus musculus with 12 samples.

Results

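The NRF2 pathway and antioxidant enzymes were followed as a set of 50 named genes in the striatum of Huntington's disease (HD) model mice with and without p62. The genes were chosen by name: the transcription factor NRF2 (Nfe2l2), its repressor KEAP1 and further regulators, NRF2 target genes and antioxidant enzymes. A probe set carrying the gene's symbol alone was used for 47 of the 50, out of 19248 genes tested, and the brightest such probe set stood for each gene. Prdx5, Prdx6 and G6pdx were not analysed here. The study crossed p62 knockout mice with HD transgenic mice and measured gene expression in the striatum, the forebrain nucleus most affected in HD, at 8 weeks of age. The 12 mice fell into 4 groups of 3: non-transgenic with normal p62 (NT p62+/+), non-transgenic with p62 knockout (NT p62-/-), HD transgenic with normal p62 (HD p62+/+) and HD transgenic with p62 knockout (HD p62-/-). The HD transgene line, its promoter and the deleted part of the p62 gene were not given in the sources used here. The samples are called biological replicates and each was taken as 1 mouse. Nothing says whether they shared a litter, so p-values measure only the spread between these samples.

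NRF2 is held in the cytoplasm by KEAP1, an adaptor of the CUL3 ubiquitin ligase, and is degraded. When cysteines of KEAP1 are oxidized, NRF2 escapes, pairs with a small MAF protein and binds antioxidant response elements near genes of glutathione synthesis, thioredoxin reduction, quinone reduction, iron storage and NADPH supply, while BACH1 competes for the same elements. p62, encoded by Sqstm1, carries a short motif that binds KEAP1 at the site used by NRF2, so that p62 can withdraw KEAP1 from NRF2, and Sqstm1 is itself an NRF2 target. In brain tissue the NRF2 response is known mainly from glia, above all astrocytes. An RNA measurement reports none of the protein steps, and only the transcripts of the regulators and targets were measured here.

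The core antioxidant response element, TGACNNNGC on either strand, was looked for in the promoters of the members, taken as 250 bases before to 50 bases after each gene start (RefSeq, GRCm38.p6). Of 43 members with a promoter in the table, 15 held the element in at least 1 promoter (34.9%), against 3781 of 27025 genes in the table (14%). Counted per promoter, it was 16 of 58 promoters of members (27.6%) against 12.4% of all 32851. The AP-1 site TGACTCA, whose letters can lie within the longer element, was in a promoter of 6 of the 43 members (14%) against 5.95% of genes. The following stretches are shown because they belong to members that were higher in HD mice and hold the element, which is in capitals. Pgd, whose element lies just after a gene start, is not shown. Each is written 5′ to 3′ on the strand of its gene.
Nfe2l2, encoding NRF2, chr2:75704855-75704913, minus strand: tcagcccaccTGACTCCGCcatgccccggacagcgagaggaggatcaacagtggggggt
Prdx1, a cytosolic peroxiredoxin, chr4:116685426-116685514, plus strand: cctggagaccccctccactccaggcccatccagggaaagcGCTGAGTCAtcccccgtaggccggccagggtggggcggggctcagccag
Txnrd1, cytosolic thioredoxin reductase, chr10:82859074-82859162, plus strand: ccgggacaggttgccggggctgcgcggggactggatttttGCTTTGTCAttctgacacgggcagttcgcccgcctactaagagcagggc
Mgst1, a microsomal glutathione transferase, chr6:138140431-138140519, plus strand: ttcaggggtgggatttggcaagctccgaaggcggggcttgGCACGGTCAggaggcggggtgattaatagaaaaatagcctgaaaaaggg
Gclm, the modifier subunit of the enzyme that starts glutathione synthesis, chr3:122245383-122245471, plus strand: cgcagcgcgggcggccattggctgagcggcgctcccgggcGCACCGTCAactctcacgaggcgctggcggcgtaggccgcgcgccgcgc
In the promoter of Prdx1 the element also contains the AP-1 site, on the strand opposite to the gene. The element began 133 bases before the gene start in Prdx1, 134 in Gclm, 92 in Txnrd1, 56 in Mgst1 and 240 in Nfe2l2. Of the 15 members higher in HD mice that had a promoter, 6 held the element, as did 0 of the 4 that were lower and 8 of the 22 that did not pass the test. A match of letters is a description, not a binding site.

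Whole-transcript arrays gave 1 log2 value per probe set and mouse, and array medians lay between 7.70 and 7.73. Precision is limited by having 3 arrays in each group. Sqstm1, encoding p62, was 11.19, 11.35 and 11.24 in NT p62+/+, 8.44, 8.52 and 8.49 in NT p62-/-, 11.75, 11.26 and 11.51 in HD p62+/+ and 8.92, 9.13 and 9.02 in HD p62-/- mice, so that the knockout label held in every mouse. HD minus non-transgenic, it differed by 0.24 ± 0.11 (SE; limma, adjusted p = 0.179) with normal p62 and 0.54 ± 0.11 (adjusted p = 0.00760) in the knockouts. Averaged over both, the difference was 0.39 ± 0.076 (limma, adjusted p = 0.00293). What its probe set measured in the knockouts was not tested. Penk and Ppp1r1b, markers of the striatal projection neurons, were at or above 12.51 and 10.44 in all 12 mice. The arrays differed in spread: the SD over all probe sets ran from 1.79 to 1.81 in NT p62+/+, 1.73 to 1.82 in NT p62-/-, 1.79 to 1.86 in HD p62+/+ and 1.81 to 1.87 in HD p62-/- mice. Among genes brighter than the median gene, the median difference of HD minus non-transgenic mice was 0.06, and among dimmer genes -0.09. Of the 47 members, 37 were among the brighter genes, and their median was 0.11, as it was for the 10 dimmer members.

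The HD transgene was accompanied by higher transcripts of NRF2 itself, of thioredoxin and of the peroxiredoxins, and of some glutathione transferases. Averaged over both p62 genotypes (the mean of the HD minus NT difference with and without p62), 16 of 47 members rose, 4 fell and 27 did not pass (limma, Benjamini-Hochberg adjusted p below 0.05 over all genes). The 20 that passed are 42.6% of members against 35.0% of all genes, and 34.0% against 19.9% for higher genes and 8.51% against 15.0% for lower ones. Of all 47 members, those that passed included, 24 had an unadjusted p below 0.05, as did 46.9% of genes. The median log2 difference was 0.11 over the members and -0.02 over all genes. In mice with normal p62 alone, 3 members passed (6.38%, against 7.10% of genes), which is near the background. Of these 1 was higher (3.85% of genes were) and 2 were lower (3.24% of genes), and 14 had an unadjusted p below 0.05 (25.4% of genes). Without p62, 14 members passed (29.8% against 21.7%), 13 of them higher (13.3% of genes) and 1 lower (8.34%), and 20 had an unadjusted p below 0.05 (38.8% of genes). The groups did not overlap with normal p62 for 15 members that were higher (17.8% of genes) and 5 that were lower (15.3%), and without p62 for 20 (22.3%) and 2 (17.2%). The transcripts of all 6 HD mice lay above those of all 6 non-transgenic mice for 10 members (21.3%, against 10.5% of genes) and below for 1 (2.13% against 5.69%). After a further quantile normalization these counts were 9 and 1, with Txn1 added and Gsto1 and Sod2 no longer apart. In tissue RNA, a change in the number of cells of a type and a change of RNA per cell cannot be told apart.

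The calls changed when array spread was a covariate and when single mice were left out. The mean array SD was 1.799 and 1.785 in the non-transgenic groups with and without p62, and 1.836 and 1.849 in the HD groups. Array spread and HD state thus went together in part. For a call lost with this covariate, the 2 cannot be told apart. With the SD of each array as a covariate, 8 members passed for the mean HD effect (5 higher, 3 lower), 1 for the HD effect without p62 and 4 for that with p62. Without replicate 3 of NT p62-/-, whose array had the smallest spread, 5 members passed for the HD effect without p62, and 5 and 6 without replicates 2 and 3 of HD p62-/-. For the HD effect with p62, 1 member passed without replicate 1 or 3 of NT p62+/+ or of HD p62+/+, and 5 without replicate 3 of NT p62-/- or replicate 1 of HD p62-/-. The share of all genes that passed in each of these fits is not given here, so these member counts have no background beside them. Counts over all genes fell as well. Under the alternatives other than leaving out a mouse they went down to 2215 for the mean HD effect, from 6728, and to 778 without p62, from 4172. With 1 mouse left out they went down to 1273 without p62 and 398 with p62. These are the lowest counts over the settings and need not come from the fit that gave a member count above. Whether the members lost more calls than other genes was not tested.

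**Figure D1:**
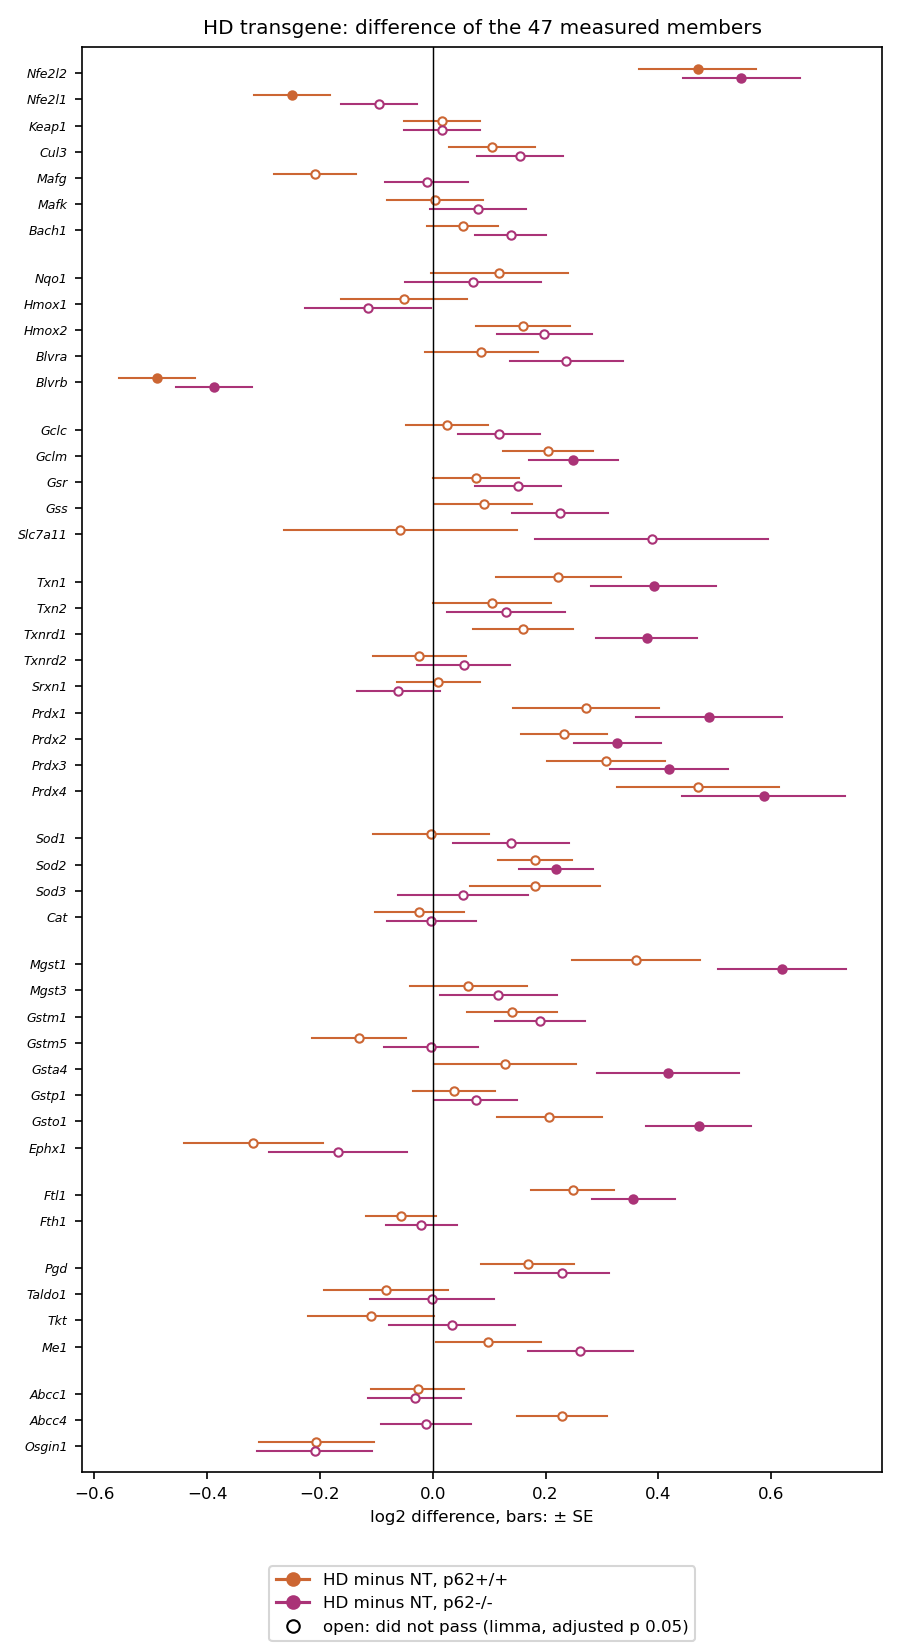
Log2 difference of HD minus non-transgenic mice for each of the 47 measured members, in mice with normal p62 (orange) and without p62 (purple), 3 mice per group; bars are the standard error, filled points passed limma at an adjusted p of 0.05, and gaps separate the roles. Nfe2l2, the peroxiredoxins, Mgst1 and Ftl1 lie to the right of 0 in both genotypes and Blvrb to the left, while Keap1, Srxn1, Cat and Fth1 lie close to 0.

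Among the regulators, Nfe2l2 rose in HD mice and Keap1 ran from 8.53 to 8.70 over all 12 mice. Nfe2l2 (chromosome 2, 75675513 to 75704663, GRCm38.p6) was 8.07, 8.35 and 8.03 in NT p62+/+ mice and 8.69, 8.54 and 8.63 in HD p62+/+ mice. In the knockouts it was 8.25, 8.02 and 8.12 without and 8.51, 8.79 and 8.74 with the HD transgene. Every HD mouse was above every non-transgenic mouse. The group means were 8.15 ± 0.17 and 8.62 ± 0.074 (SD, n = 3) with p62, a difference of 0.47 ± 0.10 (SE; 1.39-fold; limma, adjusted p = 0.0226). Without p62 the difference was 0.55 ± 0.10 (adjusted p = 0.00613), and the mean HD effect was 0.51 ± 0.073 (adjusted p = 0.000613). It was 0.41 ± 0.090 (adjusted p = 0.0176) once array spread was a covariate, but the difference without p62 alone then did not pass (0.42, adjusted p = 0.0853). The call with normal p62 was lost without replicate 1 or 3 of NT p62+/+ or of HD p62+/+ (adjusted p up to 0.0891).

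Keap1 (chromosome 9, 21229730 to 21239332) was 8.66, 8.68 and 8.61 in NT p62+/+, 8.64, 8.66 and 8.53 in NT p62-/-, 8.69, 8.62 and 8.68 in HD p62+/+ and 8.65, 8.53 and 8.70 in HD p62-/- mice. The 4 groups overlapped, and the mean HD effect was 0.02 (95% interval -0.09 to 0.12). Nfe2l1, which encodes the related factor NRF1 that drives proteasome genes, moved the other way from Nfe2l2. It was 12.02, 12.02 and 12.06 in NT p62+/+ and 11.84, 11.77 and 11.74 in HD p62+/+ mice, and fell by 0.25 (SE 0.068, adjusted p = 0.0457). In the knockouts the groups of 12.02, 11.94 and 11.94 and 11.77, 11.97 and 11.87 overlapped (-0.09 ± 0.068, adjusted p = 0.308). The fall with normal p62 did not pass when any 1 mouse other than replicate 3 of NT p62-/- and replicates 1 and 2 of HD p62-/- was left out (adjusted p up to 0.159), whereas the mean HD effect (-0.17 ± 0.048, adjusted p = 0.0164) passed with each mouse left out.

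The other regulators did not pass in any comparison of the main fit. Mafg, a small MAF partner of NRF2, was 8.60, 8.65 and 8.63 in NT p62+/+ and 8.33, 8.38 and 8.54 in HD p62+/+ mice, which did not overlap (-0.21 ± 0.073, adjusted p = 0.10). In NT p62-/- mice it was 8.52, 8.50 and 8.59 and in HD p62-/- mice 8.42, 8.57 and 8.59, which overlapped (-0.01 ± 0.073). The mean HD effect of Mafg was -0.11 ± 0.052 (limma, adjusted p = 0.116). After a further quantile normalization it was -0.18 ± 0.049 and passed (adjusted p = 0.0186). Cul3, the scaffold of the ligase that KEAP1 serves, was 10.52, 10.55 and 10.49 in NT p62+/+, 10.51, 10.65 and 10.42 in NT p62-/-, 10.72, 10.54 and 10.62 in HD p62+/+ and 10.64, 10.75 and 10.65 in HD p62-/- mice, with a mean HD effect of 0.13 ± 0.054 (adjusted p = 0.0774). Bach1, the competing repressor, was 8.14, 8.25 and 8.16 and 8.23, 8.18 and 8.30 with p62 and 8.17, 8.19 and 8.10 and 8.28, 8.26 and 8.34 without it, NT before HD. Its groups overlapped with p62 and did not without it (0.14 ± 0.064, adjusted p = 0.130). Mafk, another small MAF protein, was 7.49, 7.56 and 7.49 in NT p62+/+, 7.39, 7.39 and 7.49 in NT p62-/-, 7.48, 7.63 and 7.46 in HD p62+/+ and 7.38, 7.45 and 7.68 in HD p62-/- mice. Both extremes were HD p62-/- mice, and its mean HD effect was 0.04 ± 0.060.

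Thioredoxin and peroxiredoxins, which together remove hydrogen peroxide at the cost of NADPH, held 6 members that rose for the mean HD effect, of 9 measured (66.7%, against 19.9% of genes; median difference 0.28). In mice without p62 6 rose (66.7% against 13.3%; median 0.38). In mice with normal p62 0 passed in limma, where 7.10% of genes did (median 0.22). An unadjusted p below 0.05 was reached by 3 of the 9, Prdx2, Prdx3 and Prdx4, and by 25.4% of genes. Prdx4, the peroxiredoxin of the endoplasmic reticulum, was 6.45, 6.78 and 6.71 in NT p62+/+ and 7.21, 6.98 and 7.16 in HD p62+/+ mice. Without p62 it was 6.90, 6.70 and 6.39 in non-transgenic and 7.04, 7.50 and 7.21 in HD mice. All 6 HD mice were above all 6 non-transgenic mice, with a mean HD effect of 0.53 ± 0.10 (1.44-fold, adjusted p = 0.00282) on the deposited scale. With array spread as a covariate this was 0.28 ± 0.090 and did not pass (adjusted p = 0.0724).

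Prdx3, the mitochondrial peroxiredoxin, also separated the 6 HD from the 6 non-transgenic mice. It was 9.58, 9.52 and 9.62 in NT p62+/+, 9.56, 9.65 and 9.32 in NT p62-/-, 10.02, 9.70 and 9.92 in HD p62+/+ and 9.79, 10.03 and 9.97 in HD p62-/- mice. Its mean HD effect was 0.36 ± 0.074 (adjusted p = 0.00369), and with array spread in the fit 0.17 ± 0.052, which did not pass (adjusted p = 0.0608). Prdx2, a cytosolic peroxiredoxin abundant in neurons and red blood cells, was 11.36, 11.42 and 11.39 and 11.74, 11.49 and 11.65 with p62 and 11.38, 11.34 and 11.25 and 11.56, 11.70 and 11.69 without it, NT before HD. It too did not overlap between HD and non-transgenic mice (0.28 ± 0.054, adjusted p = 0.00286). Its difference was 0.17 ± 0.048 (adjusted p = 0.0468) with array spread in the fit. A further probe set of Prdx2 gave a log2 difference between HD and NT of 0.20 with and 0.34 without p62, beside 0.23 and 0.33 for the probe set used.

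Prdx1, whose promoter stretch is shown above, was 10.80, 10.59 and 10.64 in NT p62+/+, 10.64, 10.70 and 10.27 in NT p62-/-, 10.99, 10.86 and 10.99 in HD p62+/+ and 10.76, 11.20 and 11.11 in HD p62-/- mice. HD and non-transgenic mice did not overlap within either p62 genotype. The difference was 0.27 ± 0.13 (adjusted p = 0.212) with and 0.49 ± 0.13 (adjusted p = 0.0221) without p62, and a further probe set gave 0.24 and 0.39. Txn1, cytosolic thioredoxin, was 11.28, 11.39 and 11.33 and 11.72, 11.42 and 11.53 with p62 and 11.34, 11.44 and 11.02 and 11.55, 11.68 and 11.74 without it, NT before HD (mean HD effect 0.31 ± 0.078, adjusted p = 0.0113). Txnrd1, which reduces thioredoxin and is a classical NRF2 target, was 8.48, 8.63 and 8.45 in NT p62+/+ and 8.78, 8.57 and 8.70 in HD p62+/+ mice, which overlapped. Without p62 the values of 8.34, 8.42 and 8.27 and 8.57, 8.84 and 8.75 did not overlap, and it rose by 0.38 ± 0.089 (adjusted p = 0.0144).

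In the absence of p62, the rises of Prdx1, Prdx2, Prdx3, Txn1 and Txnrd1 each failed to pass without replicate 3 of NT p62-/- or without replicate 2 or 3 of HD p62-/-, and that of Prdx4 without the first or second of these (adjusted p up to 0.0988). All 6 also failed with array spread as a covariate. For the mean HD effect that covariate left the call of Prdx2 alone among the 6. Txn1 then had 0.10 ± 0.057 (adjusted p = 0.279), Prdx1 0.15 ± 0.077 (adjusted p = 0.237) and Txnrd1 0.13 ± 0.056 (adjusted p = 0.164). Srxn1, sulfiredoxin, which restores overoxidized peroxiredoxins, did not pass and ranged from 9.51 to 9.76 over all mice (mean HD effect -0.03 ± 0.052). The mitochondrial Txn2 and Txnrd2 had mean HD effects of 0.12 ± 0.074 and 0.02 ± 0.058 and did not pass.

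**Figure D2:**
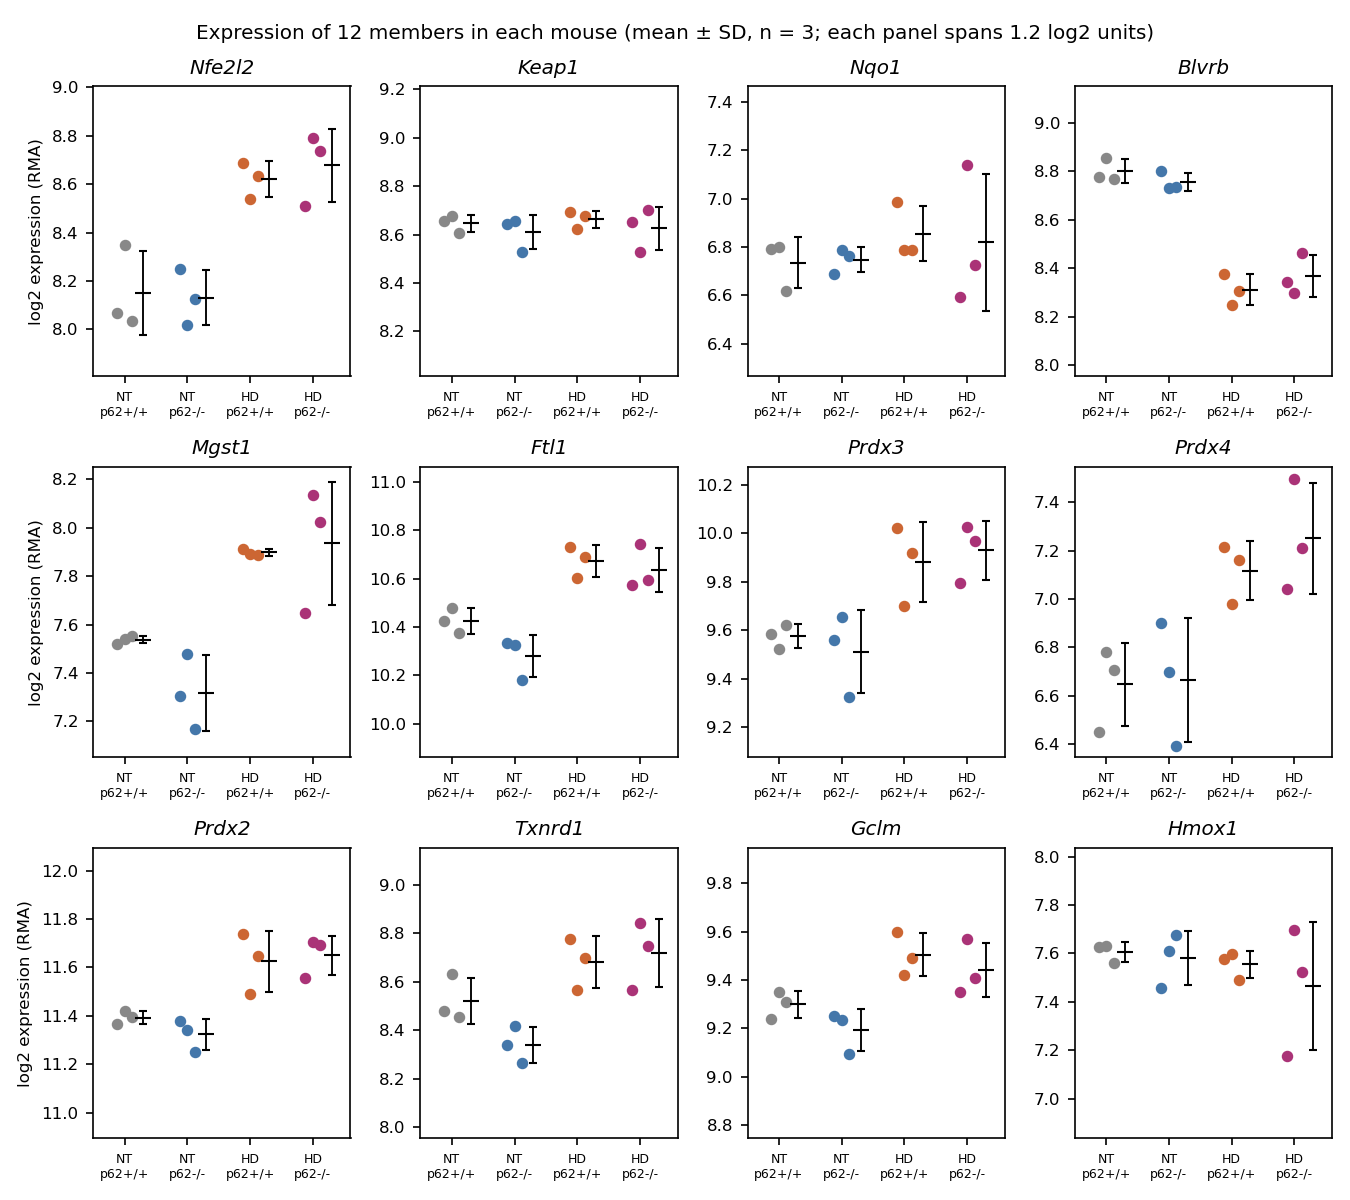
Log2 expression of 12 members in each of the 12 mice by group (NT, non-transgenic; points, mice; bars, mean ± SD, n = 3), each panel spanning 1.2 log2 units. The HD mice lie above the non-transgenic mice for Nfe2l2, Mgst1, Ftl1, Prdx2, Prdx3, Prdx4 and Gclm and below them for Blvrb, while Keap1, Nqo1 and Hmox1 overlap.

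Of 5 genes of glutathione synthesis, recycling and cystine import, Gclm alone passed. It was 9.24, 9.35 and 9.31 in NT p62+/+, 9.25, 9.23 and 9.09 in NT p62-/-, 9.60, 9.42 and 9.49 in HD p62+/+ and 9.35, 9.57 and 9.41 in HD p62-/- mice, with no overlap between HD and non-transgenic mice, although the nearest values both round to 9.35. The mean HD effect was 0.23 ± 0.056 (adjusted p = 0.00965). It was 0.11 ± 0.052 once array spread was a covariate and no longer passed (adjusted p = 0.195). Gclc, the catalytic subunit of the same enzyme, had 0.07 ± 0.051 and did not pass. Nor did glutathione synthetase Gss (0.16 ± 0.060, adjusted p = 0.0600) or glutathione reductase Gsr (0.11 ± 0.054, adjusted p = 0.116). Slc7a11, the cystine transporter and a classical NRF2 target, had the highest SD of all members in both groups with normal p62. It was 8.56, 9.14 and 8.50 in NT p62+/+, 8.39, 8.53 and 8.08 in NT p62-/-, 8.96, 8.29 and 8.77 in HD p62+/+ and 8.54, 9.01 and 8.62 in HD p62-/- mice, and its SD was 0.35 in NT p62+/+ mice, where the median over members was 0.055.

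Glutathione transferases and epoxide hydrolase, which detoxify reactive compounds, held 4 members that rose and 1 that fell for the mean HD effect, of 8 (50% against 19.9% of genes, and 12.5% against 15.0%). Mgst1, a membrane-bound transferase that also reduces lipid peroxides, was 7.52, 7.54 and 7.55 in NT p62+/+ and 7.91, 7.89 and 7.89 in HD p62+/+ mice. In the knockouts it was 7.30, 7.48 and 7.17 without and 7.65, 8.14 and 8.02 with the HD transgene. HD and non-transgenic mice did not overlap. The difference was 0.36 ± 0.11 (adjusted p = 0.0727) with p62 and 0.62 ± 0.11 (1.54-fold, adjusted p = 0.00515) without p62. The mean HD effect of 0.49 ± 0.080 was 0.32 ± 0.080 with array spread as a covariate and still passed (adjusted p = 0.0294), whereas the call without p62 was lost with it (0.41, adjusted p = 0.0678).

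Gsto1, an omega-class transferase, was 8.22, 8.24 and 8.13 in NT p62+/+, 8.33, 8.04 and 7.93 in NT p62-/-, 8.43, 8.33 and 8.44 in HD p62+/+ and 8.50, 8.62 and 8.58 in HD p62-/- mice. It rose without p62 (0.47 ± 0.093, adjusted p = 0.00740) and did not pass with p62 (0.21 ± 0.093, adjusted p = 0.190). With array spread in the fit it passed neither without p62 (0.33, adjusted p = 0.0969) nor for the mean HD effect (0.22, adjusted p = 0.073). Gsta4, which conjugates the lipid peroxidation product 4-hydroxynonenal, was 9.15, 9.32 and 8.98 and 9.50, 9.02 and 9.32 with p62 and 9.03, 9.02 and 8.95 and 9.23, 9.58 and 9.44 without it, NT before HD. The groups overlapped with p62 and not without it (0.42 ± 0.13, adjusted p = 0.0353). That call was lost with the replicate number as a block, after a further quantile normalization and with array spread as a covariate. It was also lost without any 1 mouse of NT p62-/- or replicate 2 or 3 of HD p62-/-. Gstm1, a mu-class transferase of astrocytes, had a mean HD effect of 0.16 ± 0.056 (adjusted p = 0.0397), which did not pass after a further quantile normalization, with array spread as a covariate, without the 3 arrays of smallest spread in their groups or without any 1 mouse other than replicate 2 of NT p62+/+, replicates 1 and 2 of NT p62-/- and replicate 1 of HD p62-/- (adjusted p up to 0.0982). Ephx1, microsomal epoxide hydrolase, was 8.68, 8.71 and 8.66 in NT p62+/+ and 8.37, 8.33 and 8.39 in HD p62+/+ mice, with no overlap. In HD p62-/- mice it spread over 8.16, 8.80 and 8.52, around the 8.70, 8.72 and 8.57 of NT p62-/- mice. Its mean HD effect of -0.24 ± 0.087 (adjusted p = 0.0469) did not pass when any mouse but replicate 2 of HD p62-/- was left out (adjusted p up to 0.0824). The effect was -0.31 ± 0.077 (adjusted p = 0.0114) after a further quantile normalization. With array spread as a covariate it was -0.41 ± 0.094 (adjusted p = 0.0200). Mgst3, Gstm5 and Gstp1 did not pass (mean HD effects 0.09, -0.07 and 0.06).

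Of the heme and quinone enzymes, Blvrb was the member with the smallest p for HD. It encodes biliverdin reductase B, a flavin and biliverdin reductase, and lies on chromosome 7 (27447978 to 27465981). Blvrb was 8.78, 8.86 and 8.77 in NT p62+/+, 8.80, 8.73 and 8.74 in NT p62-/-, 8.38, 8.25 and 8.31 in HD p62+/+ and 8.34, 8.30 and 8.46 in HD p62-/- mice. All 6 HD mice were below all 6 non-transgenic mice. It fell by 0.49 (SE 0.067, 1.40-fold, adjusted p = 0.00210) with p62 and fell by 0.39 (SE 0.067, adjusted p = 0.00433) without p62, and it passed under every alternative tried, including each mouse left out. Blvra, the reductase of the heme breakdown product biliverdin in most tissues, did not pass (0.16 ± 0.071).

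The textbook NRF2 targets Nqo1 and Hmox1 did not pass in any comparison. Nqo1, a quinone reductase, was 6.79, 6.80 and 6.62 in NT p62+/+, 6.69, 6.79 and 6.76 in NT p62-/-, 6.99, 6.79 and 6.79 in HD p62+/+ and 6.59, 7.14 and 6.73 in HD p62-/- mice. Its brightness was at the 26.1st percentile of all genes, and whether it lay above background was not tested. Hmox1, the inducible heme oxygenase, was 7.63, 7.63 and 7.56 in NT p62+/+, 7.46, 7.61 and 7.67 in NT p62-/-, 7.58, 7.60 and 7.49 in HD p62+/+ and 7.17, 7.70 and 7.52 in HD p62-/- mice. The mean HD effects were 0.09 (95% interval -0.09 to 0.28) and -0.08 (-0.26 to 0.09). Both had their lowest and highest mouse in the HD p62-/- group, replicates 1 and 2. Hmox2, the constitutive heme oxygenase, was higher in all 6 HD than in all 6 non-transgenic mice (0.18 ± 0.059, adjusted p = 0.0352), with 10.57, 10.56 and 10.36 in NT p62+/+, 10.55, 10.56 and 10.35 in NT p62-/-, 10.69, 10.59 and 10.68 in HD p62+/+ and 10.60, 10.71 and 10.75 in HD p62-/- mice. The call was lost after a further quantile normalization, with array spread as a covariate and without replicate 3 of either non-transgenic group, replicate 1 or 3 of HD p62+/+ or replicate 2 or 3 of HD p62-/- (adjusted p up to 0.0862).

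Of the ferritin subunits, which store iron, the light chain Ftl1 rose and the heavy chain Fth1 did not pass. Ftl1 was 10.42, 10.48 and 10.37 in NT p62+/+, 10.33, 10.33 and 10.18 in NT p62-/-, 10.73, 10.60 and 10.69 in HD p62+/+ and 10.57, 10.74 and 10.59 in HD p62-/- mice. HD and non-transgenic mice did not overlap, and the mean HD effect was 0.30 ± 0.052 (adjusted p = 0.00156), or 0.20 ± 0.049 (adjusted p = 0.0255) when array spread was a covariate. The 3 further probe sets that list Ftl1 beside other symbols gave HD minus NT differences of 0.17 to 0.27 with and 0.24 to 0.34 without p62. Ftl1 has near-identical copies in the genome, so its signal may include theirs. Fth1 ranged from 12.35 to 12.50 over all 12 mice (-0.04 ± 0.044).

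Of the superoxide dismutases and catalase, the mitochondrial Sod2 was the 1 of 4 that passed. Sod2 was 10.99, 11.09 and 11.05 in NT p62+/+, 10.96, 11.03 and 11.05 in NT p62-/-, 11.19, 11.27 and 11.22 in HD p62+/+ and 11.15, 11.31 and 11.22 in HD p62-/- mice. On the deposited values it was higher in every HD than in every non-transgenic mouse, by 0.20 ± 0.046 (1.15-fold, adjusted p = 0.00714). The cytosolic Sod1, the extracellular Sod3 and catalase, Cat, had mean HD effects of 0.07 ± 0.073, 0.12 ± 0.082 and -0.01 ± 0.056. Among 4 enzymes of NADPH supply, Pgd of the pentose phosphate pathway rose (0.20 ± 0.059, adjusted p = 0.0220), with 7.89, 7.94 and 7.86 and 8.16, 8.00 and 8.03 with p62 and 7.88, 7.64 and 7.60 and 7.95, 7.86 and 8.00 without it, NT before HD. The pair overlapped without p62, and the call was lost with array spread as a covariate, without the 3 arrays of smallest spread in their groups and without replicate 3 of NT p62+/+, replicate 1 of HD p62+/+ or replicate 3 of HD p62-/- (adjusted p up to 0.0581). Malic enzyme Me1 had 0.18 ± 0.066 (adjusted p = 0.0515), transaldolase Taldo1 -0.04 ± 0.078 and transketolase Tkt -0.04 ± 0.079. Osgin1, an oxidative stress-induced growth inhibitor and NRF2 target, fell by 0.21 (SE 0.072, adjusted p = 0.0424), with 7.96, 7.87 and 7.88 and 7.69, 7.87 and 7.52 with p62 and 8.12, 7.81 and 7.80 and 7.73, 7.72 and 7.65 without it, NT before HD. That call was lost with array spread or the choroid plexus marker mean as a covariate and without any 1 mouse other than replicates 2 and 3 of NT p62-/-, replicate 2 of HD p62+/+ and replicate 1 of HD p62-/- (adjusted p up to 0.105). The export pump Abcc1 ranged from 8.47 to 8.80 and did not pass.

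The comparison of knockouts with mice of normal p62 asks how the pathway's transcripts stood without the KEAP1-binding protein p62. No member passed for p62 loss in non-transgenic mice, in HD mice or averaged over both (limma, 0 of 47 in each). At an unadjusted p below 0.05 there were 2 members in non-transgenic mice (3.32% of genes), 0 in HD mice (2.88%) and 3 for the average (2.69%). The background of adjusted calls was 0.00520% of genes in each HD state, which is Sqstm1 alone, and 0.0104% for the average. The 6 knockouts and the 6 mice with normal p62 overlapped for all 47 members (0.0520% of genes were higher without overlap and 0.0416% lower). The 95% intervals of the averaged difference, from the same fit and not adjusted for the number of genes, lay within 0.5 log2 units (1.41-fold) on either side of 0 for 47 of 47 members. For p62 loss in non-transgenic mice alone this held for 46 of 47, with Slc7a11 reaching down to -0.85, and in HD mice for 47 of 47. It also held for 41 of 47 members for the mean HD effect, where 20 members passed. Lying within this bound therefore does not show that a member was unchanged. For Keap1 the average was -0.04 (-0.14 to 0.07), for Nfe2l2 0.02 (-0.14 to 0.18), for Nqo1 -0.01 (-0.20 to 0.17), for Hmox1 -0.06 (-0.23 to 0.11), for Srxn1 -0.03 (-0.15 to 0.08) and for Gclc -0.03 (-0.14 to 0.08).

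In non-transgenic mice 38 of 47 members were lower in the knockouts (median -0.05), where 47.1% of all genes were higher. In HD mice 15 were lower and 32 higher (median 0.03), where 49.0% of all genes were higher. That split did not hold under each setting: 22 were higher and 25 lower with array spread as a covariate, 27 were higher after a further quantile normalization, and the median was -0.0047 without replicate 2 of HD p62+/+. The non-transgenic groups did not overlap for 6 members that were lower in the knockouts, Ftl1, Gstm1, Gstp1, Mafg, Mgst1 and Txnrd1 (12.8% of members, against 4.0% of genes), and for 1 that was higher, Abcc4 (2.13% against 3.88%). Gstp1, a pi-class transferase, was 10.73, 10.73 and 10.67 in NT p62+/+ and 10.52, 10.52 and 10.62 in NT p62-/- mice (-0.15 ± 0.073). It was 10.75, 10.67 and 10.81 in HD p62+/+ and 10.49, 10.68 and 10.70 in HD p62-/- mice, which overlapped. Gstm1 was 11.20, 11.30 and 11.18 and 11.11, 11.15 and 10.93 in the non-transgenic pair (-0.16 ± 0.080) and 11.39, 11.36 and 11.35 and 11.18, 11.38 and 11.20 in the HD pair. In HD mice the groups did not overlap for Gsto1, which was higher, and Pgd, which was lower in the knockouts (2.13% of members each, against 3.26% and 4.11% of genes).

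The array of replicate 3 of NT p62-/- weighed on these signs. It was the lowest of its group for 30 of the 47 members. Without it 30 members were lower and 17 higher in non-transgenic knockouts, with a median of -0.02. After a further quantile normalization 35 were lower (median -0.03), and the groups of Gstp1 and Mafg overlapped while those of Gss and Mafk no longer did. With the choroid plexus marker mean as a covariate the median was -0.13 (-0.01 over all genes), a larger fall than the -0.05 of the main fit. That marker mean did not overlap between the non-transgenic groups (-0.63 to -0.32 with p62, 0.33 to 0.54 without). Its part in the members' differences was not tested. Abcc4, an efflux pump for cyclic nucleotides and drugs, was 7.71, 7.59 and 7.81 in NT p62+/+ mice against 7.89, 8.01 and 7.87 in NT p62-/-, 7.84, 7.90 and 8.05 in HD p62+/+ and 7.88, 7.94 and 7.91 in HD p62-/- mice. The NT p62+/+ group was below the 3 others, with a difference of 0.22 ± 0.079 for p62 loss and 0.23 ± 0.079 for HD with p62, comparisons that share these control mice and did not pass (adjusted p = 1.00 and 0.0972).

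**Figure D3:**
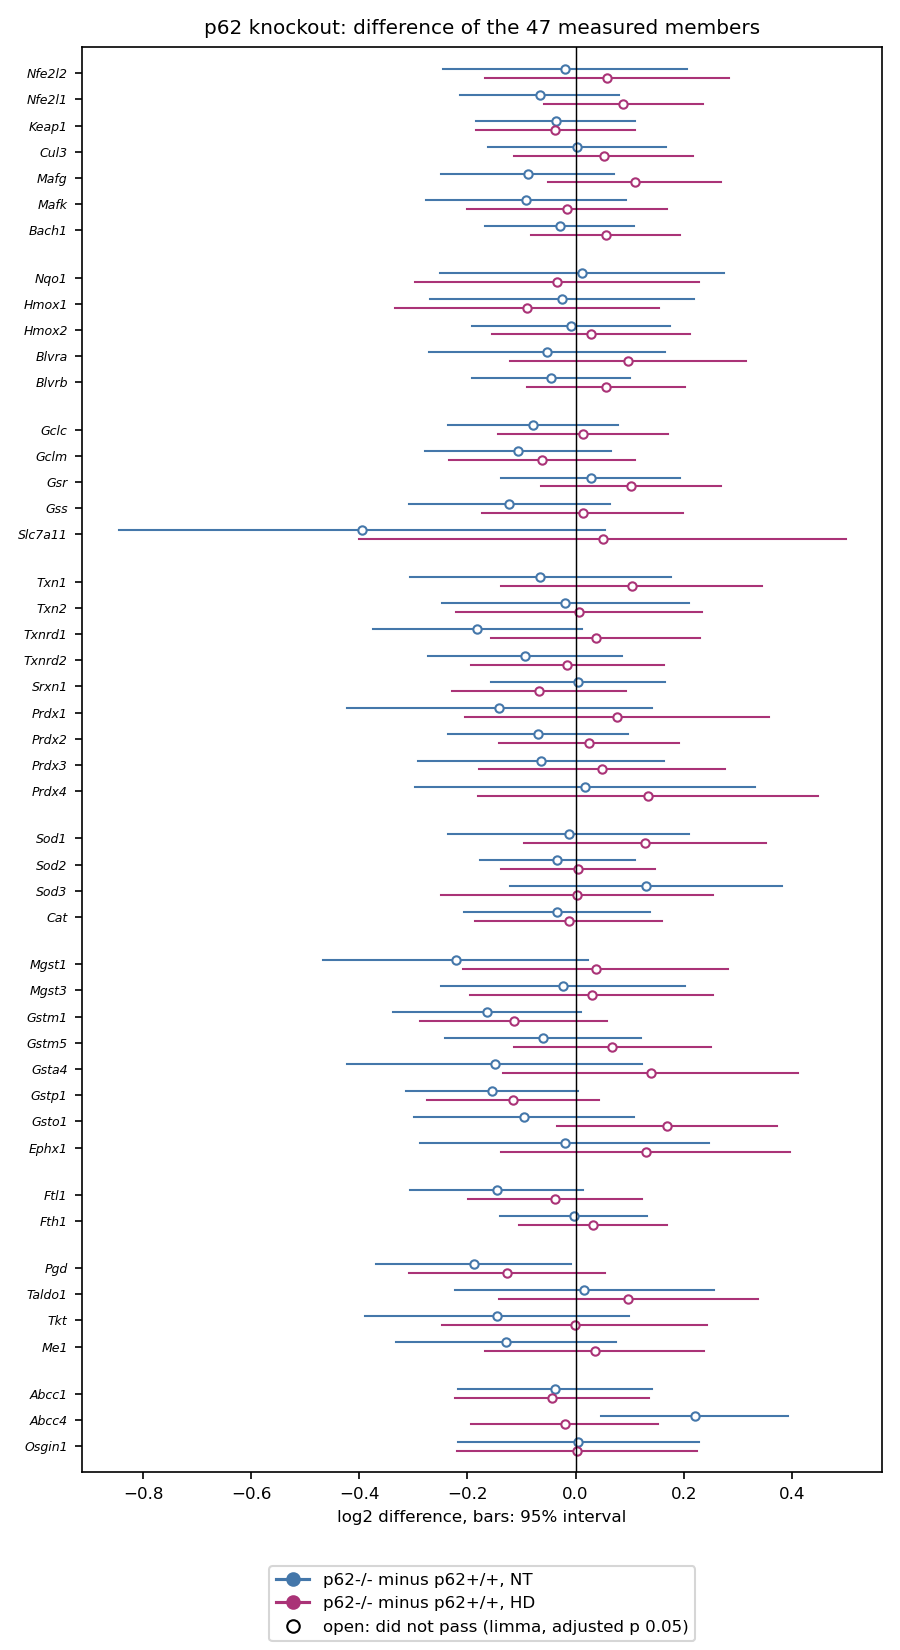
Log2 difference of p62-/- minus p62+/+ mice for each of the 47 measured members, in non-transgenic (blue) and HD mice (purple), 3 mice per group; bars are 95% intervals and no point passed limma at an adjusted p of 0.05. Points of the non-transgenic mice lie to the left of 0 for 38 members and most intervals include 0, with the widest for Slc7a11.

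Whether the HD effect itself differed with and without p62 was tested as the difference of the HD effects. None of 47 members passed in limma (0 at an unadjusted p below 0.05, against 3.45% of genes; no gene of the 19248 passed). The estimate was positive for 39 members and negative for 8, with a median of 0.08 against 0.00 over all genes, and positive for 31 without replicate 3 of NT p62-/- or with array spread as a covariate. Members that passed without p62 and not with p62 are therefore not shown to respond differently. For Mgst1 the difference was 0.26 ± 0.16 (95% interval -0.09 to 0.61), for Txnrd1 0.22 ± 0.13 (-0.05 to 0.49), for Gsto1 0.27 ± 0.13 (-0.02 to 0.55), for Prdx1 0.22 ± 0.18 (-0.18 to 0.62) and for Nfe2l2 0.08 ± 0.15 (-0.24 to 0.40). The intervals for Txnrd1 and Mgst1 leave room for a difference as large as the HD effect with p62.

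The members' mean level per mouse went with the spread of the arrays at the widest and narrowest arrays. As the mean over 47 members of each log2 value minus that gene's mean over all mice, it was -0.04 to 0.01 in NT p62+/+, -0.17 to -0.05 in NT p62-/-, -0.03 to 0.10 in HD p62+/+ and -0.03 to 0.15 in HD p62-/- mice, so that NT p62-/- mice lay below all HD mice and NT p62+/+ mice overlapped them. The 4 mice above 0.05 were the HD mice whose arrays had the 4 widest spreads, and the lowest mouse, replicate 3 of NT p62-/-, had the narrowest. Between these there was no steady rise: replicate 2 of NT p62-/-, with an array SD of 1.82, was at -0.05. Over the 9 thioredoxin and peroxiredoxin genes every HD mouse (-0.01 to 0.21) was above every non-transgenic mouse (-0.31 to -0.05), also replicate 2 of HD p62+/+ and replicate 1 of HD p62-/-, whose array SDs of 1.79 and 1.81 lay within those of non-transgenic mice. With array spread as a covariate, 27 of the 47 members were positive for the mean HD effect, where 52.4% of all genes were. The median was then 0.04 over the members and 0.01 over all genes. In the main fit 34 members were positive, where 46.2% of all genes were. Without the 3 arrays of smallest spread in their groups, 23 members passed for the mean HD effect and 38 were positive, where 46.8% of all genes were. The share of all genes that passed in that fit is not given here.

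**Figure D4:**
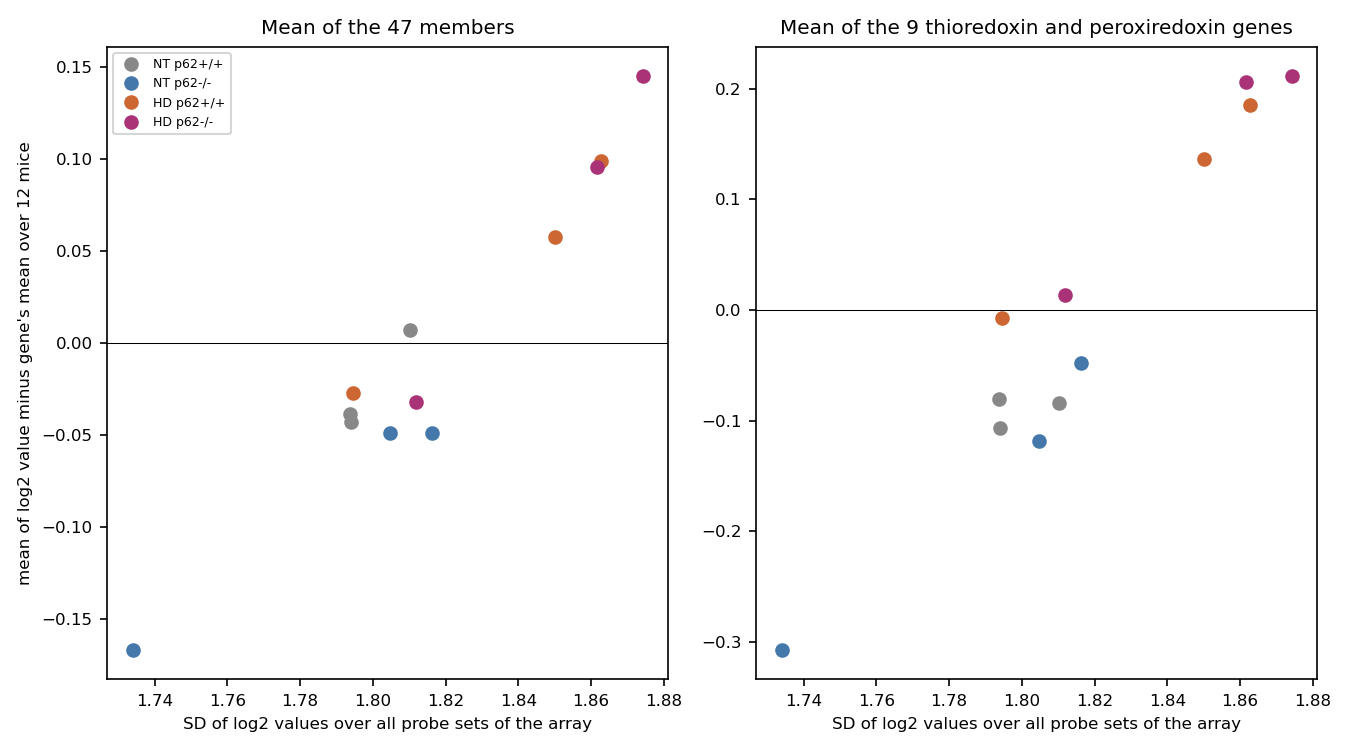
Mean level of all 47 members (left) and of the 9 thioredoxin and peroxiredoxin genes (right) in each of the 12 mice, as log2 value minus the gene's mean over all mice, against the SD of the log2 values over all probe sets of that mouse's array. In the left panel the HD mice with the widest arrays have the highest member means and the mouse with the narrowest array the lowest. Among the arrays between these there is no steady rise. In the right panel all HD mice lie above all non-transgenic mice.

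Markers of the cells in which these genes are known moved in part the other way. Of 12 astrocyte markers 5 fell and 1 rose for the mean HD effect (median -0.15), and their mean per mouse was 0.01 to 0.18 in non-transgenic mice with p62, 0.04 to 0.07 in those without, and -0.11 to -0.04 and -0.14 to -0.02 in HD mice with and without p62. Of 11 mature oligodendrocyte markers 5 fell (median -0.14), of 12 projection neuron markers 11 fell and 1 rose (median -0.60), and of 10 microglia markers 2 rose (median 0.09), where 19.9% of genes rose and 15.0% fell. Of 9 markers of cortical excitatory neurons 1 fell, Rspo1, and 8 were negative for the mean HD effect (median -0.30), as all 9 were with p62 (median -0.48). Of 8 oligodendrocyte precursor markers 1 rose (median 0.04). Choroid plexus markers, a sign of ventricle tissue in the dissection, ran from -0.72 to 1.14 per mouse, with -0.63 to -0.32 in NT p62+/+ and 0.33 to 0.54 in NT p62-/- mice, and 1 of 13 passed for the mean HD effect. With their mean as a covariate 19 members passed for the mean HD effect, beside 20 in the main fit. The share of all genes that passed with this covariate is not given here. Leptomeningeal (0 of 8), ependymal (0 of 8) and endothelial and mural markers (1 of 11) gave few calls, and 2 red blood cell genes were measured with none. The part of these cells in the members' differences was not tested.

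A further 77 genes of the pathway that were measured and are no members, among them additional targets, glutathione and thioredoxin enzymes and NADPH sources, gave 18 higher and 4 lower for the mean HD effect (23.4% higher against 19.9% of genes, 5.19% lower against 15.0%; median 0.09). With normal p62 1 rose and 0 fell (1.30% against 7.10%), and without p62 15 rose and 2 fell (19.5% against 13.3%, and 2.60% against 8.34%). Ugdh, UDP-glucose dehydrogenase, was 8.41, 8.44 and 8.27 in NT p62+/+, 8.27, 8.23 and 7.99 in NT p62-/-, 8.69, 8.60 and 8.80 in HD p62+/+ and 8.54, 8.83 and 8.79 in HD p62-/- mice, with no overlap between HD and non-transgenic mice (0.44 ± 0.071, adjusted p = 0.00111). Fech, ferrochelatase, which inserts iron into heme, rose by 0.36 ± 0.096 with and 0.37 ± 0.096 without p62. Cbr3, a carbonyl reductase and NRF2 target, fell by 0.55 (SE 0.10, adjusted p = 0.00657) without p62, and had -0.27 ± 0.10 (adjusted p = 0.136) with p62. The aldehyde reductase Akr1a1 and the transferase Gstm4 rose for the mean HD effect by 0.28 ± 0.052 and 0.31 ± 0.062. Without p62 the aldo-keto reductase Akr1b10 and the transferase Gstz1 rose by 0.36 ± 0.084 and 0.58 ± 0.14. For p62 loss 0 of the 77 passed in limma in non-transgenic, in HD or in all mice (2, 4 and 4 at an unadjusted p below 0.05), and for the difference of the HD effects 0 did (2 unadjusted).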

How the data were processed

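Striatal RNA (100 ng per sample) was hybridised to Affymetrix whole-transcript arrays. The authors deposited log2 values, 1 per probe set and array, after RMA according to the submitters' processing notes; settings and versions are not stated, and detection calls were not used here. The method scales arrays to each other, which hides any shift common to most genes. Of 24055 probe sets, 19942 carry a single gene symbol in the platform table, 1225 carry several and 2888 are not listed there. The brightest probe set stood for each of 470 genes with more than 1, leaving 19248 genes.

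Group means were fitted with limma 3.58.1 in R 4.3.3 over the 12 arrays together (8 residual and 4.14 prior degrees of freedom), with Benjamini-Hochberg adjustment across every gene and calls below 0.05. The scripts were tested on simulated data. Members could all be named; values per mouse are given for Sqstm1, the regulators, Nqo1, Hmox1 and members past the threshold, and of the other pathway genes up to 5 per contrast with the smallest p among those past it. The members, gene lists and tests were chosen with earlier results of these data known. Replicates of a group correlated at 0.988 to 0.995, and no pair held identical values. Alternatives were a replicate block, quantile normalization, equal medians, brightness filters, probe set averages, trended variance, array weights, only the groups compared, another threshold and leaving out each mouse. Array spread or the choroid plexus mean as a covariate, and leaving out the array of smallest spread in each of 3 groups (NT p62-/- replicate 3, HD p62+/+ replicate 2 and HD p62-/- replicate 1), were chosen after seeing the data.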

Additional observations from a re-analysis of the deposited data

How the results depend on the processing

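Across 37 pairs of a called member and a contrast, 142 of 900 alternative values no longer passed and 0 changed sign. The pairs were chosen because they passed, and many alternatives leave the log2 difference as it was. These are the replicate block, brightness filters, trended variance, only the groups compared, another threshold and leaving out a mouse outside the contrast. For them the sign could not change, so the 0 does not measure robustness. The number of members called for the HD effect with p62, 3, was 1 with the replicate number as a block, 6 after a further quantile normalization, 5 above the 25th percentile of brightness, 5 above the 50th, 5 with trended variance, 5 with only the groups compared, 15 with array weights, 9 at an adjusted p below 0.1 and 11 without the 3 arrays of smallest spread in their groups, and 1 to 5 with each mouse left out. For the HD effect without p62, 14, it was 8 with only the groups compared, 1 with array spread as a covariate and 5 to 15 with each mouse left out. For the mean HD effect, 20, it was 8 with array spread as a covariate and 14 to 21 with each mouse left out. It was 0 for the p62 contrasts and the difference of the HD effects under each alternative run. Over all genes the counts of 1366, 4172 and 6728 for the HD effect with p62, without p62 and the mean ran from 398 to 4625, 778 to 6663 and 2215 to 9464. These ranges run over all settings, and the share of all genes in each single setting is not given here. Above the 50th percentile of brightness, 37 members were left. The replicate numbers did not pair the mice: 4 of 18 same-numbered pairs had correlated deviations above 0.1, and 2 of 12 mice correlated best with their own number. With the replicate block, 17 members passed for the mean HD effect, Gsta4, Hmox2 and Ephx1 no longer. The averaged contrasts and the difference of the HD effects use all groups, so they have no value with only the groups compared. The cause of the changes was not tested. Detection calls were not used, so dim members such as Nqo1 and Prdx4 may lie near background.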

Other observations

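Akr1b8, an aldo-keto reductase known as an NRF2 target, had the smallest p for p62 loss averaged over both HD states among the 77 further pathway genes, and is named here after its values were seen. It was 7.90, 7.94 and 7.87 in NT p62+/+ and 7.57, 7.62 and 7.82 in NT p62-/- mice, and 8.14, 8.10 and 8.08 in HD p62+/+ and 8.01, 7.90 and 7.73 in HD p62-/- mice. The knockouts were below the mice with normal p62 within each HD state. The differences were -0.23 ± 0.084 and -0.22 ± 0.084 (SE), and the average of -0.23 ± 0.060 did not pass in limma over all genes (adjusted p = 1.00). Averaged over p62 genotypes it was higher in HD mice (0.21 ± 0.060, adjusted p = 0.0199).

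Slc40a1, the iron exporter ferroportin, was 7.03, 6.83 and 7.22 in HD p62+/+ and 6.72, 6.63 and 6.79 in HD p62-/- mice, which did not overlap (-0.31 ± 0.094, and the adjusted p in limma was 1.00). In non-transgenic mice the values ran from 6.89 to 7.11 and those with and without p62 overlapped. Slc40a1 and Nfe2l3 were also named after their values were seen. Nfe2l3, which encodes a further relative of NRF2, rose for the mean HD effect by 0.39 ± 0.10 (adjusted p = 0.0132), with 6.90, 6.69 and 6.69 and 7.37, 6.99 and 7.33 with p62 and 7.03, 6.84 and 6.79 and 7.04, 7.56 and 7.02 without it, NT before HD.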
